A study of Mus musculus with 2 samples.

Results

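Immature neutrophils rich in granule RNA made up 120 of the 20364 kept cell barcodes from the lungs of mice with melanoma metastases, 38 from the library of IRF7 C435A tumours (the C435A library) and 82 from that of wild-type tumours (the WT library). Members were chosen by measured counts: a barcode was one where it held at least 5 UMIs of S100a8 and S100a9 together, at least 3 UMIs of Camp, Ngp and Ltf together and none of Cd3d, Cd3e, Cd3g, Cd79a or C1qa, which mark T cells, B cells and macrophages. UMIs are unique molecular identifiers, each standing for 1 captured RNA molecule. Kept barcodes had at least 500 UMIs with under 20% from mitochondrial genes. The members were set against 230 neutrophils of the C435A library and 228 of the WT library that met the same rule but had under 3 UMIs of Camp, Ngp and Ltf and at least 1% of their UMIs from S100a8 and S100a9. These are called comparison neutrophils.

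The cells were immune cells sorted as CD45-positive and 7-AAD-negative, that is, as live white blood cells, from digested lungs of C57 mice. The lungs carried metastases of the mouse melanoma line B16F10, whose cells had either IRF7 with the change C435A or wild-type IRF7. IRF7 is a transcription factor that drives type I interferon genes. The genotype belongs to the tumour, not to the sorted cells, and counts per gene do not show a codon, so it could not be checked here. The sources used here do not say how the IRF7 forms were put into the cells, nor how many mice, of what age, stand behind a library. The labels call the cells melanoma cells, which the CD45 sort goes against. With 1 library per genotype no difference has a replicate check, no test was made, and each interval given covers counting error only. A difference between the 2 libraries cannot be told apart from a difference between mice, sorts or captures.

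Neutrophils form their granules in order while they mature in the bone marrow. Primary granules with myeloperoxidase and elastase come first, at the promyelocyte stage. Secondary granules with lactoferrin (Ltf), the cathelicidin precursor (Camp), neutrophilic granule protein (Ngp) and collagenase (Mmp8) follow in myelocytes and metamyelocytes, and gelatinase granules come after them. Division stops around the time secondary granule RNA peaks, and that RNA is largely gone from mature neutrophils of the blood. Transcription factors of the C/EBP family, C/EBP epsilon above all, drive the secondary granule genes. Granule-rich cells outside the marrow are known from infection and from tumours, where young neutrophils are let into the blood.

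The 3 granule genes of the rule lie on mouse chromosome 9 in GRCm38, the genome build named in the submitters' processing notes. Camp spans 109847379 to 109849617 on the minus strand, Ngp 110419747 to 110423012 on the plus strand and Ltf 111019271 to 111042767 on the plus strand. Mmp8 lies on the same chromosome at 7558456 to 7568485, also on the plus strand. The 250 bases before the RefSeq start of each rule gene (GRCm38.p6) are shown because their RNA defines the cells. The spans above come from another annotation, GENCODE, and each RefSeq start lies inside its span. Each stretch therefore reaches into the span of its gene, and the Ngp match nearer the start lies within that span. Capitals mark a C/EBP-type motif, TTGCNNAA on either strand.
Camp, chr9:109849457-109849706, minus strand: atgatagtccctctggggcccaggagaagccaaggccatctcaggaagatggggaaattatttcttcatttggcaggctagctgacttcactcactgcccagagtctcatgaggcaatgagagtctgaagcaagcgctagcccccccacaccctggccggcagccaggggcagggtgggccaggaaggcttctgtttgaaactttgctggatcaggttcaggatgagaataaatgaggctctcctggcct
Ngp, chr9:110419558-110419807, plus strand: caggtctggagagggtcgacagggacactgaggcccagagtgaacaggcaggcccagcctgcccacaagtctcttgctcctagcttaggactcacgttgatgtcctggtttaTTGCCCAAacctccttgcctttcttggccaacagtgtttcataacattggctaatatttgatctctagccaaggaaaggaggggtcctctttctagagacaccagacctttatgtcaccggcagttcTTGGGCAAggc
Ltf, chr9:111019042-111019291, plus strand: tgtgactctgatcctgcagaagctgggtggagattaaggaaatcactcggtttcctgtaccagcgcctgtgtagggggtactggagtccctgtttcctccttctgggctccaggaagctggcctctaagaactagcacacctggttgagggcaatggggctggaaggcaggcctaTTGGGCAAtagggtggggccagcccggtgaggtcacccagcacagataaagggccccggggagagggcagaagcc
In the window that runs to 50 bases after the start, the Ngp sequence held 2 matches, the Ltf sequence 1 and the Camp sequence 0. Of 32851 promoter windows of that length in the table, 3547 (10.8%) held the motif. A PU.1-type motif, GAGGAAG on either strand, had no match in the 3 windows and was in 4477 windows (13.6%). A match is a run of letters and not a site of binding.

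The members were deeper than the comparison neutrophils. Their median depth was 4577 UMIs in the C435A library (1596 to 20169) and 4884 in the WT library (2387 to 35857), against 1666.5 and 1740.5 UMIs in comparison neutrophils. Their summed depth was 221980 and 514367 UMIs, against 559897 and 526981 UMIs. Mitochondrial genes gave a median of 0.249% and 0.304% of UMIs in members and 0.296% and 0.356% in comparison neutrophils. The libraries as a whole held 59564151 and 54787137 UMIs in kept barcodes, with medians of 3424 and 2798 per barcode. Of the barcode names, 24 occurred in both libraries and none of these was a member. Doublets were not removed, and a removal by Scrublet took out 3 of the 38 members of the C435A library and 8 of the 82 of the WT library.

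The values that chose the members were far from the threshold in most cells. The lowest count of S100a8 and S100a9 in a member was 432 UMIs in the C435A library and 436 in the WT library. Camp, Ngp and Ltf together reached a median of 217 UMIs (5.18% of the cell's UMIs, from 0.137% to 13.8%) in the C435A library and 303.5 UMIs (6.50%, from 0.0753% to 15.1%) in the WT library. All 3 genes had a UMI in 29 and 70 members, and Camp had none in 1 and 4. Just inside the threshold, 0 and 3 barcodes had 3 UMIs and 1 and 0 had 4. Just outside it, 4 and 2 barcodes had 2 UMIs and 11 and 21 had 1. These were counted among 255 and 290 barcodes, without the 1% minimum share of S100a8 and S100a9. At least 100 UMIs were held by 26 of 38 members of the C435A library and by 63 of 82 of the WT library.

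**Figure D1:**
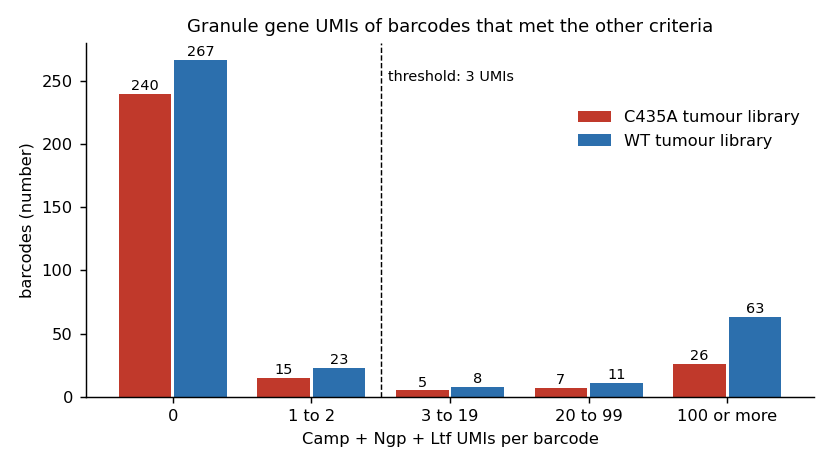
Number of neutrophil barcodes (vertical axis) by their UMIs of Camp, Ngp and Ltf together (horizontal axis, 0 to at least 100), for the C435A library and the WT library; members have 3 UMIs or more. Few barcodes lie near the threshold, and 26 and 63 barcodes hold at least 100 UMIs.

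The label could be set against only 1 of the markers given for it, Mmp8, since the rule used the others. Mmp8, the neutrophil collagenase of secondary granules, had a UMI in 29 of 38 and 69 of 82 members. Among the dividing members described below it had a UMI in only 0 of 6 and 2 of 13. After thinning every cell to 1000 UMIs, 73.7% of members in the C435A library and 74.4% in the WT library had an Mmp8 UMI, against 34.7% and 30.2% of comparison neutrophils. B cells, which should lack it, gave 0% (upper limit 0.166%) and 0.273%. Camp was in 97.4% and 91.5% of thinned members, against 0.450% and 1.35% of comparison neutrophils and 0.495% and 1.21% of B cells. The rule fixed the Camp shares of both neutrophil classes, so nothing is read from them.

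Members were a smaller share of the C435A library than of the WT library. They were 0.368% of kept barcodes there (38 of 10313, 95% exact Clopper-Pearson interval 0.261% to 0.505%), against 0.816% in the WT library (82 of 10051, 0.649% to 1.01%). The difference was -0.447 percentage points (Newcombe interval -0.667 to -0.238). Comparison neutrophils were 2.23% (1.95% to 2.53%) of the C435A library and 2.27% (1.99% to 2.58%) of the WT library, a difference of -0.0382 points (-0.448 to 0.370). Of all neutrophils, members were 14.2% (38 of 268, 10.2% to 18.9%) in the C435A library and 26.5% (82 of 310, 21.6% to 31.7%) in the WT library, a difference of -12.3 points (-18.6 to -5.71). The sort, the number of mice and the digestion can set such shares.

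The lower share in the C435A library did not hold under each treatment of mixed barcodes. The exclusion of barcodes with Cd3, Cd79a or C1qa UMIs had removed 15 candidates from the C435A library and 38 from the WT library, and with these kept the members were 53 and 120 and the difference in share was -0.680 points. A further treatment pooled the marker lists of other cell types, except those of plasma cells, red cells and progenitors. Removal of every neutrophil with at least 2 UMIs summed over this pool turned the difference to 0.0281 points (-0.0435 to 0.104). It left 7 and 4 members. Part of that loss came with Ly6c2, which sits in the monocyte list and had UMIs in 33 and 80 members. Ly6C proteins are also found on young neutrophils. With Ly6c2 not counted, a choice made after its values were seen, 26 and 40 members were left, and the difference was -0.146 points (-0.310 to 0.0118).

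Relative to comparison neutrophils, members were high in secondary granule genes in both libraries. Camp had 8935 UMIs in members of the C435A library and 19238 in members of the WT library, against 1 and 3 UMIs in comparison neutrophils. That is a log2 ratio of CPM (UMIs scaled to the total of the class) of 14.46 (11.98 to 19.76) in the C435A library and 12.68 (11.13 to 14.96) in the WT library. Ngp had 5324 and 14253 UMIs against 14 and 10, and Ltf had 1303 and 3964 UMIs against 1 and 1. The rule fixed these 3 contrasts, and they are given as a description. Per cell, the median member had 258 Camp UMIs per 10000 in the C435A library and 244 in the WT library, and the highest comparison neutrophil had 7.66 and 7.77.

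Of 6602 genes with at least 20 UMIs, 304 (4.60%) were at least 2-fold higher in members in both libraries and 1038 (15.7%) at least 2-fold lower. The rule chose the cells by this contrast, so nothing is read from any count in it. S100a8, S100a9, Camp, Ngp and Ltf, with the lineage genes, held 33.4% and 37.0% of the members' UMIs against 6.77% and 9.20% in comparison neutrophils, and the median gene had a log2 ratio of -0.50 in the C435A library and -0.44 in the WT library. Scaling by trimmed means (TMM) moved all ratios up by about that much and gave 542 genes higher and 532 lower. All ratios below are on the CPM scale and should be read against that median. Members and comparison neutrophils also differed in depth, and its part in these ratios was not tested.

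Of the secondary granule genes, 13 of 16 measured were at least 2-fold higher in members in both libraries, the 3 rule genes among them, and none was lower. The list median was 2.99 in the C435A library and 3.59 in the WT library. Lcn2, which encodes the siderophore-binding protein lipocalin 2, had 2765 and 7369 UMIs in members and 726 and 656 in comparison neutrophils, log2 ratios of 3.26 and 3.52. Cd177, a neutrophil surface glycoprotein, had 183 and 577 UMIs against 32 and 28 (3.85 and 4.40). Mmp8 had 516 and 1250 UMIs against 226 and 220 (2.53 and 2.54). Orm1, an acute-phase protein gene, had 39 and 84 UMIs in members and 0 in comparison neutrophils, so its log2 ratio was at least 5.04 and 4.84 with a floor of 3 UMIs per library and class. The chitinase-like gene Chil3 (2.21 and 3.66), the integrin gene Itgb2l (6.38 and 4.78) and the ficolin gene Fcnb (2.72 and 5.58) were also high, while Hp, for haptoglobin, was not (-0.19 and -0.38).

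**Figure D2:**
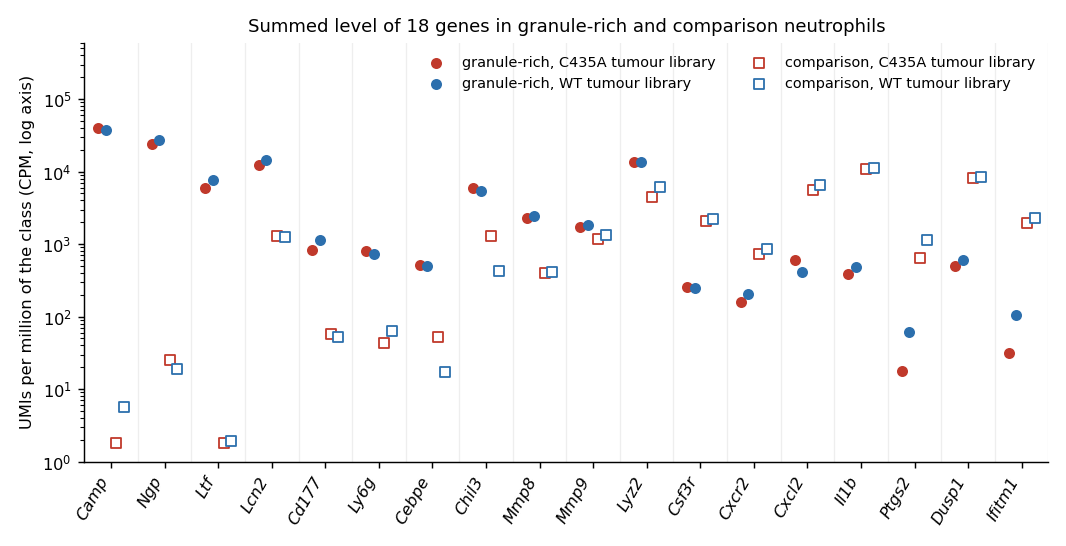
CPM on a log axis (vertical) of 18 genes (horizontal) in granule-rich neutrophils (filled circles) and, to their right, comparison neutrophils (open squares), for the C435A library in red and the WT library in blue. Granule genes are high in granule-rich cells of both libraries, and Il1b, Cxcr2 and Csf3r are low.

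The further genes with the largest ratios, by the rule on the interval bound nearest 0, included a transcription factor and a surface protein of granulocytes. Cebpe, the gene for C/EBP epsilon, had 113 and 253 UMIs in members against 29 and 9 (log2 3.30 and 4.85). Ly6g, whose protein is the usual surface marker of mouse neutrophils, had 180 and 375 UMIs against 24 and 33 (4.24 and 3.54), and Ly6a2, annotated as a transcribed pseudogene of the same family, had 227 and 562 against 17 and 24 (5.07 and 4.58). Reads of the Ly6, Stfa, Ifitm, Ear and H2 gene families may be split between near-identical copies, which makes these values uncertain. Adpgk, for an ADP-dependent glucokinase, had 208 and 453 UMIs against 17 and 12 (4.95 and 5.27). Ifitm6 had 397 and 1196 UMIs against 144 and 115 (2.80 and 3.41). Abca13 (5.09 and 5.20) and Olfml2b (5.29 and 3.97) had 27 to 61 UMIs in members and 1 to 4 in comparison neutrophils.

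Gelatinase granule and cytosolic genes were split. Of 6 gelatinase granule genes, Mmp25 (2.67 and 1.89) and the lysozyme gene Lyz2 (1.59 and 1.15) were at least 2-fold higher in both libraries and the metal transporter gene Slc11a1 was lower (-3.42 and -2.17). Mmp9, for gelatinase itself, had log2 ratios of 0.53 and 0.47. Of 12 cytosolic antimicrobial genes 7 were higher, among them the rule genes S100a8 (2.03 and 1.76) and S100a9 (1.91 and 1.65), the annexin genes Anxa3 (3.33 and 2.12) and Anxa1 (1.97 and 1.94). In that list Wfdc17, Stfa1 and Stfa2l1 were lower. Cybb, the catalytic subunit of the NADPH oxidase, had ratios of 1.66 and 2.10, and its cytosolic partner Ncf1 of 1.41 and 1.29.

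Receptor and inflammatory genes of mature neutrophils were low in members. Csf3r, the receptor of the growth factor G-CSF, had 57 and 127 UMIs in members and 1173 and 1159 in comparison neutrophils (log2 -3.03 and -3.16). Cxcr2, the chemokine receptor that draws neutrophils out of the marrow, had 35 and 107 UMIs against 410 and 452 (-2.22 and -2.04). Of 22 receptor genes 11 were at least 2-fold lower in both libraries, and Ltb4r1, a receptor of leukotriene B4, was higher (1.33 and 1.52). Of 20 inflammatory mediators 16 were lower and none higher, with list medians of -2.44 and -3.09. Among all 6602 genes 15.7% were lower and 4.60% higher, and nothing is read from these counts. The cytokine gene Il1b had 86 and 246 UMIs against 6022 and 5991 (-4.80 and -4.57), and the chemokine gene Cxcl2 had 135 and 211 against 3087 and 3456 (-3.18 and -4.00). Tnf was low in both classes, with 14 and 29 UMIs in members and 57 and 42 in comparison neutrophils.

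The difference in Il1b was also one of cells. Thinned to 1000 UMIs, 13.2% of members in the C435A library and 18.3% in the WT library had an Il1b UMI, against 97.3% and 96.8% of comparison neutrophils. Without thinning the shares were 21.1% and 28.0% against 98.7% and 98.7%, with 2.59% and 3.91% in B cells, where thinned B cells had 0.72% and 1.44%. Cxcr2 was in 23.7% and 20.7% of thinned members against 57.7% and 58.6%. Per cell the ranges of Il1b overlapped: the highest members reached 92.3 and 91.7 UMIs per 10000, above the lower quartile of comparison neutrophils (79.1 and 74.7) and under their median (133 and 126).

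The other genes lowest in members by the same rule were mostly early-response and inflammatory genes. Ptgs2, for the prostaglandin enzyme COX-2, had 4 and 32 UMIs in members and 360 and 594 in comparison neutrophils, and the inflammasome gene Nlrp3 had 5 and 19 against 349 and 316. The phosphatase gene Dusp1 had log2 ratios of -4.05 and -3.81, and Fosb and Atf3, for transcription factors, of -4.38 and -4.13 and of -6.07 and -4.26. Gadd45b (-3.84 and -3.52) and Socs3, for a brake on cytokine signalling (-7.01 and -3.49), belonged here too. Socs3 and Atf3 had 1 UMI each in members of the C435A library, with intervals of -12.32 to -4.52 for Socs3 and -11.39 to -3.58 for Atf3. Wfdc17 (-7.69 and -4.50), Ifitm1 (-5.97 and -4.44), Fgl2 (-4.59 and -4.02) and the chemokine gene Ccl6 (-3.61 and -3.40) completed the group. Genes that tissue digestion is known to induce moved the same way, with list medians of -2.46 and -1.19. At least 2-fold lower in members were 10 of 17 and none was higher, where 15.7% and 4.60% of all genes were. Nothing is read from that count, and the part of these genes in the result was not tested.

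**Figure D3:**
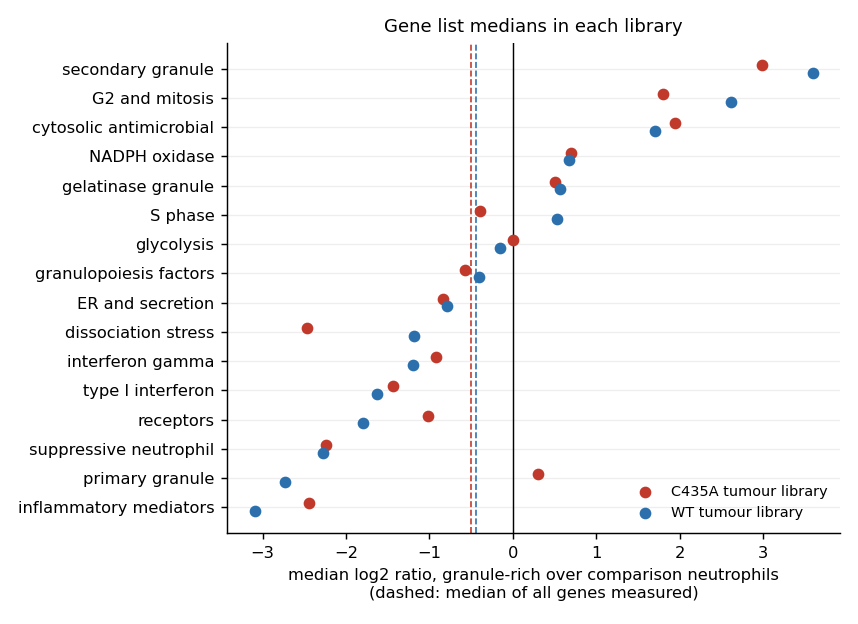
Median log2 ratio of CPM, granule-rich over comparison neutrophils (horizontal axis), of 16 gene lists (vertical axis) in the C435A library and the WT library; dashed lines mark the median of all 6602 genes. Secondary granule and mitosis lists lie to the right in both libraries and inflammatory mediators to the left.

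Genes of mitosis were high in the summed members, of which 19 were counted as dividing by such genes. Of 25 G2 and mitosis genes 18 were at least 2-fold higher in members in both libraries and none was lower. Among all 6602 genes 4.60% were higher and 15.7% lower, and nothing is read from these counts. The list medians were 1.80 in the C435A library and 2.62 in the WT library. Ube2c, for a ubiquitin enzyme of mitotic exit, had 98 and 163 UMIs in members and 18 and 9 in comparison neutrophils (log2 3.78 and 4.21). Top2a, for topoisomerase II alpha, had 47 and 80 UMIs against 24 and 6 (2.30 and 3.77). Dividing members held 98 of the 98 and 162 of the 163 Ube2c UMIs, and 46 of the 47 and 80 of the 80 Top2a UMIs. Both genes belong to the lists that counted a member as dividing, so nothing is read from these shares. Of 18 S phase genes Pclaf was higher (1.25 and 1.90), 3 were lower and the rest did not pass 2-fold in both libraries. The replication clamp gene Pcna had ratios of -1.15 and -1.05.

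Dividing members were counted as those with at least 40 UMIs of S phase and mitosis genes per 10000. They were 6 of 38 (15.8%, 6.02% to 31.3%) in the C435A library and 13 of 82 (15.9%, 8.72% to 25.6%) in the WT library, a difference of -0.0642 points (-12.6 to 15.9). The lowest dividing members had 58.0 and 42.1 cycle UMIs per 10000 and the highest others 26.7 and 16.3, so the cut fell in a gap in the C435A library and just under 1 cell in the WT library. That cell, the deepest of the WT library, also held markers of other cell types and is described with the other such cells. In the C435A library 2 of the 6 dividing members held at least 10 UMIs of the NK list. In the deeper of these, of 20169 UMIs, all 20 UMIs of the list were Nkg7, and Gzma and Ccl5 had none. Comparison neutrophils were dividing by the same cut in 4.78% (11 of 230) and 3.51% (8 of 228). The dividing members were deep, at medians of 10232 and 12461 UMIs where the others had 4099 and 4573, and held 32.9% and 35.9% of the members' UMIs.

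Dividing members had high Camp, Chil3 and Fcnb and almost no Mmp8, Retnlg or Cxcr2. Mmp8 had 0 and 2 UMIs in dividing members, against 516 and 1248 in the other members. Retnlg, a resistin-like gene abundant in blood neutrophils, had 4 and 33 UMIs against 2899 and 5361 (log2 -8.48 and -6.51). Mmp9 had ratios of -5.96 and -4.41, and Cxcr2 had 0 and 4 UMIs against 35 and 103. Camp was higher in the dividing members (1.37 and 1.02), as were Chil3 (1.48 and 1.66) and Cebpe (2.12 and 1.03). Fcnb was nearly confined to them, with 79 of 86 and 131 of 140 UMIs. Ltf (-0.32 and -0.45), Lcn2 (-0.26 and 0.14) and Lyz2 (-0.75 and -0.41) differed by less than 2-fold.

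Primary granule genes were found in few members. Elane, for neutrophil elastase, had 311 UMIs in 1 member of the C435A library and 7 UMIs in 2 members of the WT library. The proteinase 3 gene Prtn3 had 176 UMIs in 2 members and 18 UMIs in 5. All UMIs of Elane and Prtn3 were in dividing members. The cell with 311 Elane UMIs was the deepest of the C435A library, with 20169 UMIs, 544 of primary granule genes, 1188 of Camp, 121 of Ngp and none of Ltf, and 101 cycle UMIs per 10000. The myeloperoxidase gene Mpo had 19 and 1 UMIs in members against 183 and 13 in comparison neutrophils, where Elane had 555 UMIs in 3 cells and 72 UMIs in 1 cell. Of genes of blood progenitors, Cd34 had no UMI in members, and Kit had 2 UMIs in 2 members of the C435A library and 7 UMIs in 7 of the WT library, against 5 and 0 UMIs in comparison neutrophils.

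Among members that were not dividing, Retnlg was high where the share of the rule's granule genes was low. The cells were split into tertiles by that share, a value the rule used, and the levels below describe genes it did not use, with 11, 11 and 10 cells in the C435A library and 23 each in the WT library. In the C435A library, median Retnlg was 447, 221 and 2.50 UMIs per 10000 in the lowest, middle and highest tertile. In the WT library it was 411, 105 and 30.4. Mmp8 followed the same order, with 50.8, 46.9 and 12.3 in the C435A library and 47.0, 45.0 and 30.4 in the WT library. Chil3 ran the other way, with 3.88, 16.6 and 54.6 in the C435A library and 0, 18.5 and 46.3 in the WT library. Cells with a Cxcr2 UMI were 8, 8 and 2 in the C435A library and 19, 14 and 12 in the WT library.

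Over all members the rank correlation with the granule share was -0.82 in the C435A library (n = 38 cells) and -0.83 in the WT library (n = 82) for Retnlg. It was 0.79 and 0.86 for Chil3, 0.61 and 0.67 for Lcn2, -0.62 and -0.51 for Mmp8 and -0.54 and -0.51 for Mmp9. In non-dividing members (n = 32 and 69) it was -0.77 and -0.85 for Retnlg, 0.72 and 0.85 for Chil3, 0.67 and 0.65 for Lcn2, -0.45 and -0.34 for Mmp8 and -0.35 and -0.36 for Mmp9. Ngp and Camp, both rule genes, ran together at 0.84 and 0.90. Cells of a library share that library, and both measures of a cell are divided by the same total, so these values are descriptions. Summed over each class Retnlg differed by less than 2-fold, with 2903 and 5394 UMIs in members and 3858 and 3966 in comparison neutrophils (log2 0.92 and 0.48), and it was in 60.5% and 76.8% of thinned members against 86.5% and 82.4%.

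**Figure D4:**
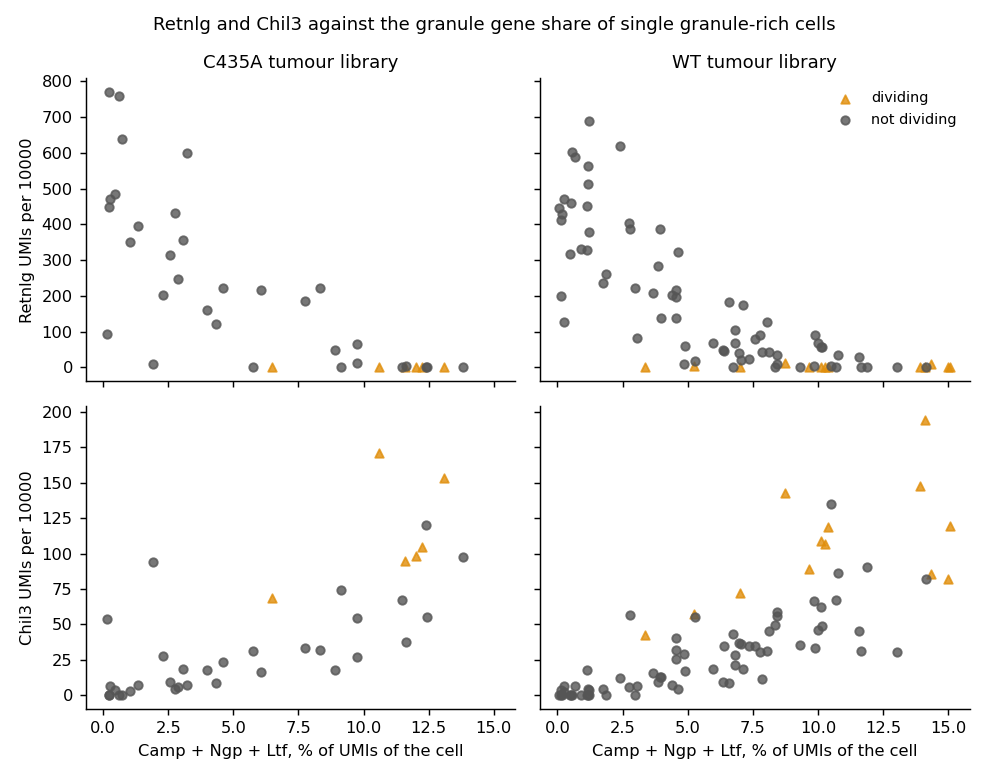
Each point is a member: its UMIs per 10000 of Retnlg (upper panels) and Chil3 (lower panels) against the percent of its UMIs from Camp, Ngp and Ltf, for the C435A library (left) and the WT library (right), with triangles for dividing cells. Retnlg falls and Chil3 climbs along the granule share in both libraries (rank correlations -0.82 and -0.83, and 0.79 and 0.86).

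Between the libraries, secondary granule genes that the rule did not use had log2 ratios of C435A over WT of -0.20 for Lcn2, -0.44 for Cd177, 0.15 for Chil3 and -0.06 for Mmp8. For the rule's own genes, given as a description, Camp had 0.11, Ngp -0.21 and Ltf -0.39 (-0.48 to -0.30). Of 3568 genes with at least 20 UMIs in members, 125 (3.50%) were at least 2-fold higher in the C435A library and 158 (4.43%) at least 2-fold lower, with a median of 0.05. Of 16 secondary granule genes 1 was higher and none lower, with a list median of -0.03 that includes the 3 rule genes. All 4 measured primary granule genes were at least 2-fold higher (median 4.98), mostly through 1 cell: with the top cells left out, the 2 that still had a value, Prtn3 and Ms4a3, had -0.79 and 0.50. None of 20 receptor genes passed 2-fold (median 0.05), and of 16 inflammatory mediators 1 was higher and 1 lower (median -0.09). Retnlg was higher by 0.32 (0.25 to 0.38) on the log2 scale. These values compare 2 libraries and not the genotypes.

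The secondary granule gene that passed was Olfm4, whose protein marks a subset of neutrophils in mice and people. It had 117 UMIs in 5 of 38 members of the C435A library and 62 UMIs in 5 of 82 members of the WT library, a log2 ratio of 2.13 (1.67 to 2.60). The ratio was 2.27 without the cell with the most Olfm4 UMIs in each library. In comparison neutrophils the ratio was -1.99, from 4 and 15 UMIs. Most members had no Olfm4 UMI. In the C435A library 2 of the 5 cells, with 10 UMIs each, also held markers of other cell types.

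A few cells with genes of other cell types carried many of the largest differences. Of the members, 4 in the C435A library held at least 10 UMIs of another type's list (Ly6c2 not counted) or at least 100 of primary granule genes, and 24.8% of the class's UMIs. In the WT library there were 3 such cells with 10.0%. In the C435A library a cell of 15370 UMIs had 123 UMIs of Ccl5, 40 of Gzma, 54 of Ear2, 24 of the NK list and 27 of the alveolar macrophage list. A cell of 9172 UMIs had 73 of Ccl5 and 28 of Gzma, and a cell of 10349 UMIs had 31 of Lpl and 24 of Ear2. In the WT library the deepest member, of 35857 UMIs, had 149 UMIs of H2-Ab1, 153 of H2-Eb1, 161 of H2-Aa, 351 of Cd74 and 44 of the dendritic list.

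The highest genes of the C435A library by the rule were largely those of these cells. Elane (log2 6.69), Prtn3 (4.50), Ms4a3 (1.88), Lpl (6.86), Ccl5 (4.79), Gzma (4.40), Nkg7 (3.66) and Ear2 (2.12) were among them. Ccl5, a chemokine gene of cytotoxic cells, had 203 UMIs in 9 members against 17 UMIs in 16 members. Without the top cell of each library Prtn3 was -0.79 and Ms4a3 was 0.50. Ccl5 was 3.63, Gzma 3.67, Nkg7 3.75 and Lpl 3.88, but these values still included another of the cells described above. Such cells of the C435A library held 123 and 73 of the 203 Ccl5 UMIs and 40 and 28 of the 73 Gzma UMIs. They held 20, 13 and 10 of the 49 Nkg7 UMIs and 31 and 18 of the 50 Lpl UMIs. These ratios therefore do not show a spread over members. With the 4 and 3 cells left out, 63 of 2938 genes were at least 2-fold higher in place of 125 of 3568. Of the 125 genes, 30 turned or dropped under 2-fold without the top cell.

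The lowest genes of the C435A library included class II genes, which present antigen in dendritic and B cells. H2-Ab1 had 11 UMIs in the C435A library and 206 in the WT library (log2 -3.01), H2-Eb1 11 and 169 (-2.73), H2-Aa 24 and 232 (-2.06) and Cd74 62 and 484 (-1.75). The deepest WT cell held 72.3%, 90.5%, 69.4% and 72.5% of the WT UMIs of these genes. Without the top cells the ratios were -2.30, -0.20, -1.62 and -1.26. After removal of Scrublet doublets H2-Ab1 was 0.68 and H2-Eb1 0.78. In non-dividing members H2-Eb1 was 0.80, H2-Aa 0.0825 and Cd74 0.58, while H2-Ab1 was at 67.2 against 161 CPM, from 10 and 53 UMIs. A non-dividing WT member of 8270 UMIs, with 25 UMIs of the monocyte list (Ly6c2 not counted), held 47 of these 53. The same 47 UMIs made up most of the 57 left in the WT library without the top cell. The H2-Ab1 values therefore do not show a spread over members. The other low genes kept a negative ratio without the top cells, but nothing is read from that. The step took 1 cell of 38 against 1 of 82 and kept the class totals, which tends to lower the ratios. With it, the genes at least 2-fold lower went from 158 to 314 of 3568. S100a4 was 0.26 after Scrublet. Crip1 was 2.03 in the 26 and 40 members left by the removal of other types' markers with Ly6c2 not counted. S100a4 had 4 and 73 UMIs (-2.98, and -2.59 without the top cells), Stfa2l1 4 and 74 (-3.28 without the top cells), Crip1 15 and 106 (-1.61 with all cells), Cstdc4 24 and 148 (-1.41 and -3.37), Ifitm1 7 and 55 (-1.76 and -2.49) and the macrophage gene Apoe 8 and 58 (-1.65 and -2.20).

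Of the other named genes, H2-K1, Lst1 and Wsb1 were spread over many members. H2-K1, a class I gene that presents antigen on nearly all cells, had 300 UMIs in 34 of 38 members of the C435A library and 291 UMIs in 62 of 82 members of the WT library. That was 1351 against 566 CPM, a log2 ratio of 1.26 (1.02 to 1.49), and 1.08 without the top cells. Comparison neutrophils went the same way, with 2552 against 1408 CPM (0.86). B2m, its partner chain, had ratios of 0.43 (0.23 to 0.63) in members and 0.43 in comparison neutrophils. Lst1 had 55 UMIs in 27 members against 260 UMIs in 74 members (-1.03, -1.48 to -0.60). Cox17, for a copper chaperone of the respiratory chain, had 12 UMIs in 7 members, 33.3% of them in 1 cell, against 75 UMIs in 45 members (-1.43, -2.45 to -0.54). Wsb1 had 46 UMIs in 21 members against 38 UMIs in 28 members (1.49, 0.84 to 2.15), and the elongation factor gene Eef1a1 363 in 32 against 489 in 69 (0.78, 0.58 to 0.98), with 28.9% and 33.7% of these in 1 cell of each library.

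**Figure D5:**
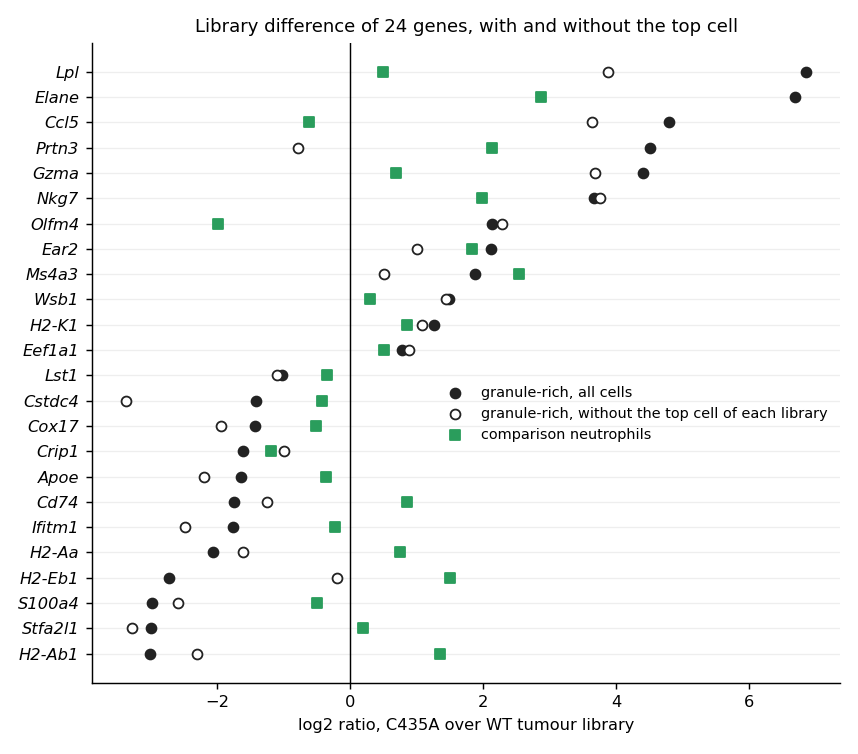
Log2 ratio of CPM, C435A over WT library (horizontal axis), of the 24 genes named by the rule (vertical axis): granule-rich neutrophils (filled), the same without the cell with the most UMIs of the gene in each library (open), and comparison neutrophils (green squares). Prtn3 moves from 4.50 to -0.79 without the top cells, while H2-K1 is at 1.08. Lst1 is at -1.10, from which nothing is read, since the step tends to lower the ratios.

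Type I interferon genes were low in members of both libraries. Relative to comparison neutrophils the list medians were -1.44 and -1.62. In both libraries 17 of 34 measured genes were at least 2-fold lower and none was higher. In this contrast 15.7% and 4.60% of all genes were, and nothing is read from the count. Irf7 itself had 5 and 17 UMIs in members and 30 and 56 in comparison neutrophils (log2 -1.25 and -1.68). Without thinning, 13.2% and 18.3% of members had an Irf7 UMI against 10.4% and 16.2% of comparison neutrophils, and after thinning 0 of 38 (exact upper limit 9.25%) and 1.22% against 5.86% and 9.46%, so no order of the classes is read from these shares. Thinned B cells had 1.67% and 2.06%. Summed over all 43 genes of the list, members had 1338 CPM in the C435A library and 1894 CPM in the WT library, and comparison neutrophils had 4013 and 5262 CPM. Of the 43 genes 16 had at least 20 UMIs over the members of both libraries, and 5 of these were at least 2-fold lower in the C435A library and none higher, where 4.43% and 3.50% of all genes were. In comparison neutrophils 5 of 32 were lower and 1 higher, where 1.94% and 5.40% of 5310 genes were. The WT library, with more members and more summed UMIs in them, gave most of the UMIs that let these genes pass. Examples were Isg15 (6 and 36), Rtp4 (5 and 33), Oasl2 (6 and 29) and Rsad2 (1 and 24), so nothing is read from the members' count.

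Markers of other cell types were present in members at low levels, and some lists were higher in comparison neutrophils. The macrophage list had 45.0 and 146 CPM in members against 539 and 742 CPM in comparison neutrophils. The monocyte list went the other way, with 933 and 1114 against 738 and 966 CPM. Removal of barcodes with other types' markers left 122 of 230 and 106 of 228 comparison neutrophils. Over the 38 members of the C435A library and the 82 of the WT library, the summed UMIs were 11 and 16 for the T cell list, 19 and 66 for B cells, 9 and 26 for plasma cells and 71 and 13 for NK cells. They were 10 and 75 for macrophages, 39 and 22 for alveolar macrophages, 0 and 44 for dendritic cells, 7 and 2 for eosinophils, 12 and 11 for red cells and 1 and 18 for melanoma. The basophil and mast cell list was at 0 in both. The monocyte list had 207 and 573 UMIs, of which 188 and 469 were Ly6c2, while F13a1 was at 0 and Csf1r had 3 and 27 UMIs. Ly6c2 was in 19 of 38 and 46 of 82 thinned members (56.1% of the WT library's), against 6.31% and 8.56% of comparison neutrophils and 6.84% and 4.01% of B cells. The part of these RNAs in the differences between the libraries or the classes, other than where a value without the cells is given, was not tested.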

How the data were processed

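The values are counts of UMIs per gene and barcode, as the authors deposited them, made with Cell Ranger 7.2.0 per the file headers and aligned to GRCm38 per the submitters' processing notes. Whether capture was by 10x Chromium 3′ V3 or by BD Rhapsody is uncertain, as the labels' protocols name the one and the other. The files held 10373 and 10156 barcodes. Of 55357 features, 52081 had an ID in the GENCODE M21 annotation, which gave the gene positions.

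UMIs were summed per library and class and divided by the class total. Log2 ratios of CPM carry exact conditional 95% intervals and shares exact Clopper-Pearson intervals, for counting error only. A 0 was set to 3 UMIs in a ratio. A gene was counted as higher or lower past 2-fold, with at least 20 UMIs. Named were the 15 highest and 12 lowest genes between the classes, and the 12 highest and 12 lowest between the libraries, by the interval bound nearest 0, with at least 50 UMIs and 100 CPM in a group, besides members of 16 gene lists. The members and lists were chosen with earlier results of these data known. Thinning took 1000 UMIs per cell. Doublets stayed in and were removed by Scrublet only as an alternative. Intervals were tested on simulated counts. Python 3.11.15, NumPy 2.4.6, SciPy 1.17.1, pandas 2.3.3, Scanpy 1.11.5, matplotlib 3.10.9, R 4.3.3 and edgeR 4.0.16 (TMM) were used. Alternatives concerned depth, doublets, thresholds, scaling, markers of other types and single cells.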

Additional observations from a re-analysis of the deposited data

Results flagged for a closer look

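For 6 of the 24 named genes the difference between the libraries had one sign in granule-rich neutrophils and the opposite sign in comparison neutrophils, as log2 ratios of C435A over WT, with both counting intervals excluding 0. Ccl5 was 4.79 in granule-rich neutrophils and -0.63 in comparison neutrophils. Olfm4 was 2.13 and -1.99. H2-Ab1 was -3.01 and 1.36, H2-Eb1 -2.73 and 1.49, H2-Aa -2.06 and 0.75, and Cd74 -1.75 and 0.85. With 1 library per genotype the difference between the classes was not tested. In the C435A library 2 granule-rich cells held 123 and 73 of the 203 Ccl5 UMIs, and in the WT library 1 cell held 149 of the 206 H2-Ab1 UMIs and 351 of the 484 Cd74 UMIs. Olfm4 in comparison neutrophils rested on 4 UMIs in the C435A library and 15 in the WT library.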

How the results depend on the processing

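No paired analysis was possible because each genotype has 1 library and no result comes from a test. No library is replicated, and depth is a further limit, since 38 cells with 221980 UMIs stand against 82 cells with 514367. Values of single genes were counted per gene, contrast and alternative. Of these, 1072 lay inside the counting interval of the main value, 190 lay outside it and 19 turned. Such an interval is wide at low counts, and ratios without a value were left out.

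With barcodes holding other types' markers removed, the C435A minus WT difference in share turned to 0.0281 points of kept barcodes and 1.79 points of neutrophils, from 7 and 4 members. It was -0.146 points of kept barcodes with Ly6c2 not counted and -0.680 with barcodes of Cd3, Cd79a or C1qa kept. The genes at least 2-fold higher in C435A over WT members (125 of 3568 tested) were 78 of 2790 after Scrublet, 24 of 142 with other markers removed, 50 of 1651 with Ly6c2 not counted there, 63 of 2938 without cells rich in another list, 675 of 11790 with no minimum count and 21 of 1573 with at least 50 UMIs. Those at least 2-fold lower (158) were 7, 75, 773 and 20 of the same numbers with other markers removed, with Ly6c2 not counted, with no minimum and with at least 50 UMIs, 314 of 3568 without the top cell of each gene and 102 of 2385 in non-dividing cells. The median of the secondary granule list was -0.93 with other markers removed. Members over comparison neutrophils, the genes higher in both libraries (304 of 6602) were 542 under TMM, 543 under median ratios, 575 with the rule genes out of the total and 181 of 4037 with at least 50 UMIs. The lower genes (1038) were 532, 531 and 503 under the same 3 scalings and 224 of 2481 with other markers removed.

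Single genes of C435A over WT turned as follows. Prtn3 was -0.32 after Scrublet, -0.93 without the deepest 5% of cells, -0.79 without the top cell and -1.53 without cells rich in another list. Ear2 was -0.54 after Scrublet, -0.14 with other markers removed and Ly6c2 not counted, and -0.72 without cells rich in another list. H2-Ab1 was 0.68, H2-Eb1 0.78 and S100a4 0.26 after Scrublet. Without the deepest 5% Ms4a3 was -0.73, H2-Eb1 0.83, H2-Aa 0.0905 and Cd74 0.52. H2-Eb1 was 0.79 without cells rich in another list, and in non-dividing cells H2-Eb1 was 0.80, H2-Aa 0.0825 and Cd74 0.58. Crip1 was 2.03 with other markers removed and Ly6c2 not counted. Among list medians of members over comparison neutrophils, primary granule genes in the WT library were 2.25 with S100 shares of at least 2% and 0.0729 as a mean over cells, type I interferon genes in the C435A library 0.23 with other markers removed, and secretory genes in the WT library 0.0208 without the deepest 5%. Each alternative that turned a value left out cells or barcodes or weighted them alike, and the cause was not tested further.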

Other observations

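Lists of metabolism, secretion and interferon gamma response had median log2 ratios, granule-rich over comparison neutrophils, nearer to 0 than the secondary granule and inflammatory lists. The median of all genes was -0.50 in the C435A library and -0.44 in the WT library. Of all 6602 genes 4.60% were at least 2-fold higher in both libraries and 15.7% lower, and since the rule chose the cells by this contrast nothing is read from the counts. Of 15 glycolysis genes none was at least 2-fold higher in both libraries and 3 were lower, with list medians of -0.00 and -0.16. The glucose transporter gene Slc2a1 was lower (-3.19 and -2.38), and Pgk1 had ratios of 1.21 and 0.47. Of 24 genes of the endoplasmic reticulum 6 were lower and none higher, with medians of -0.84 and -0.79. The chaperone gene Hspa5 was among them (-1.90 and -1.70). Of 13 interferon gamma genes 5 were lower and none higher, with medians of -0.92 and -1.20, and Irf1 had -2.62 in both libraries.

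Genes tied to suppressive neutrophils in tumours were also mostly low in granule-rich cells. Of 9 measured, Ifitm6 was higher in both libraries and 5 were lower, among them the arginase gene Arg2 (-2.43 and -3.10) and Ifitm2 (-2.24 and -2.28). Of 11 transcription factors of granulopoiesis Cebpe was higher, Cebpb (-2.30 and -2.19) and Junb (-3.02 and -2.98) were lower, and Spi1, for PU.1, had -0.76 and -1.02. Within granule-rich cells, C435A over WT, the medians were 0.52 for the endoplasmic reticulum list (1 of 18 at least 2-fold higher, none lower) and 0.57 in comparison neutrophils (2 of 22 higher, none lower), where 3.50% of all genes were at least 2-fold higher in granule-rich cells and 5.40% in comparison neutrophils, so these counts are near the background.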
